A study of Mus musculus with 2 samples.

Results

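The long tags described here are the distinct small RNA (sRNA) sequences of 28 to 44 nt that were read at least 10 times over both libraries and do not lie within an annotated miRNA hairpin. They number 6272 of 1766298 distinct tags, and they were chosen by their length and their summed reads. The libraries were made from total RNA of J1 mouse ES cells, a single pluripotent line that was kept, per the labels, on gelatin in serum replacement medium with LIF. One culture condition received 1 mM AICAR, a cell-permeable activator of the AMP-activated protein kinase, for 24 h, and the other an equal volume of its solvent DMSO (0 mM AICAR). With 1 library per condition there were no replicates, and no test of the conditions was made. There were 18870345 clean reads for DMSO and 21091226 for AICAR. Of the miR-290 cluster, a marker of mouse ES cells, 5 hairpins from Mir290a to Mir295 were counted, without Mir291b. They carried 31102 reads per 1000000 clean reads (RPM) in DMSO and 53940 RPM in AICAR. The hairpins of Mir302a to Mir302d, a cluster the authors describe as abundant in human ES cells, carried 15.2 and 5.59 RPM.

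sRNA libraries of animal cells hold miRNAs together with pieces of longer structured RNAs. Nuclear and mitochondrial tRNAs, rRNAs, snoRNAs and Y RNAs are all cut into such pieces, and some cuts, as in the anticodon loop of a tRNA, occur under stress. In germ cells, a longer class, the piRNAs, begins mostly with U. The genes of cytoplasmic tRNAs carry internal promoter elements called the A box and the B box, which are also part of the RNA.

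Sequences of the tags that carry the results are given first, 5′ to 3′, as deposited with T for U. In the first set the capitals mark TNGNNNAG, a stretch that lies near the 5′ end of many tRNAs, and the set is shown because these tags start at a like distance before it. The letters of tag6 are known as the 5′ end of tRNA-Pro, but no sequence of that gene was used here.
tag6: ggctcgtTGGTCTAGgggtatgattctc
tag20: tcccacaTGGTCTAGcggttaggattcct
tag45: gtttccgTAGTGTAGtggttatcacgttc
tag93: gggggtgTAGCTCAGtggtagagcgcgt
tag156: gcgccgcTGGTGTAGtggtatcatgcaa

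In the second set the capitals mark the 26 nt that 4 of the 10 most abundant long tags have in common. These letters are known from 28S rRNA, and no 28S sequence was used here. They are shown because 1 stretch of RNA gave many overlapping tags with different ends.
tag3: AGGTGTAGAATAAGTGGGAGGCCCCCgg
tag5: agAGGTGTAGAATAAGTGGGAGGCCCCCg
tag7: AGGTGTAGAATAAGTGGGAGGCCCCCggcg
tag10: agAGGTGTAGAATAAGTGGGAGGCCCCC

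The third set holds the other abundant tags and the leading tags of the annotated transcripts, with the first base in capitals. On GRCm38, tag4 lies at chr1:161036682-161036709 (+) within the snoRNA gene Gm23212 and a retained intron of Gas5. The lincRNA Gm42418 holds tag11 at chr17:39847215-39847242 (+), and tag62 lies at chr17:39846652-39846680 (+), opposite an entry of the type rRNA named CT010467.1. The Y RNA gene Rny1 holds tag40 at chr6:47788151-47788180 (-) and tag183 at chr6:47788071-47788098 (-).
tag8: Tcctcgcgtcggggtcggggcacgccgg
tag9: Tggggagtttgactggggcggtacacctg
tag4: Cctgcatgatgacgaacaaatactgact
tag11: Ctaggaataatggaataggaccgcggtt
tag62: Actctagataacctcgggccgatcgcacg
tag40: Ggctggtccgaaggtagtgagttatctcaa
tag183: Cttctcactactgcacttgactagtctt

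The last pair differs in where it starts and moved in opposite directions between the libraries. The capitals mark the 27 nt that both share, and tag84 lies in the lncRNA Gm43846 at chr3:104957668-104957695 (-).
tag29: gcGTTGGTGGTATAGTGGTGAGCATAGCT
tag84: GTTGGTGGTATAGTGGTGAGCATAGCTg

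Long tags took a smaller part of the AICAR library than of the DMSO library. They held 1230181 reads in DMSO, which is 65191 RPM or 6.52% of the clean reads, and 940843 reads in AICAR, which is 44608 RPM or 4.46%. The ratio of RPM, AICAR over DMSO, was 0.684 (95% exact binomial interval 0.682 to 0.686). All ratios below are of this kind, and their intervals cover counting error only, since reads of a PCR library without molecular identifiers are not independent molecules. Over the tags of 18 to 27 nt outside hairpins with at least 10 reads, the ratio was 0.962, and over the tags within hairpins it was 1.35. The reads within hairpins went from 11.8% to 15.98% of the clean reads, and relative to the reads outside hairpins the ratio of the long tags was 0.718.

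Most members were seen in both libraries. Reads in both were found for 5806 tags, in DMSO alone for 249 and in AICAR alone for 217. A member had a median of 25 reads over both libraries, 1270 members had at least 100 and 3459 had under 30. At the limit of the selection, 451 tags had exactly 10 reads and were kept, and 482 had exactly 9 and were left out. Before the limit was set there were 185068 tags of 28 to 44 nt, of which 152079 were read once. A tag with 0 reads in a library may still have a level of up to 3 reads, that is 0.159 RPM in DMSO and 0.142 RPM in AICAR.

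The long tags were steps on the falling side of the length distribution, without a peak of their own. Although lengths up to 44 nt were searched, no member was longer than 34 nt, and the 673 tags of 35 to 44 nt had at most 9 reads each. The most frequent length in both libraries was 28 nt, with 35490 RPM in DMSO and 25846 RPM in AICAR, or 54.4% and 57.9% of the long reads. At 29 nt the values were 21228 and 14576 RPM, and at 30 nt 7343 and 3778 RPM. The authors cut RNA of 18 to 30 nt from the gel, so tags above 30 nt lie beyond the stated size range.

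From 28 to 32 nt, the level in AICAR relative to DMSO was lower at each further base. The ratio was 0.728 (0.726 to 0.731) at 28 nt, 0.687 (0.683 to 0.690) at 29 nt and 0.515 (0.510 to 0.519) at 30 nt. It was 0.376 (0.366 to 0.386) at 31 nt and 0.266 (0.246 to 0.287) at 32 nt. The 11 tags of 33 nt gave 0.357 (0.274 to 0.461), and the 2 tags of 34 nt went from 28 reads to 2. Between 28 and 32 nt no neighbouring intervals overlapped, while those of 32 and 33 nt overlapped in part. Among the shorter tags outside hairpins the ratio rose from 0.616 at 18 nt to 1.21 at 25 nt and then fell to 0.843 at 27 nt.

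**Figure D1:**
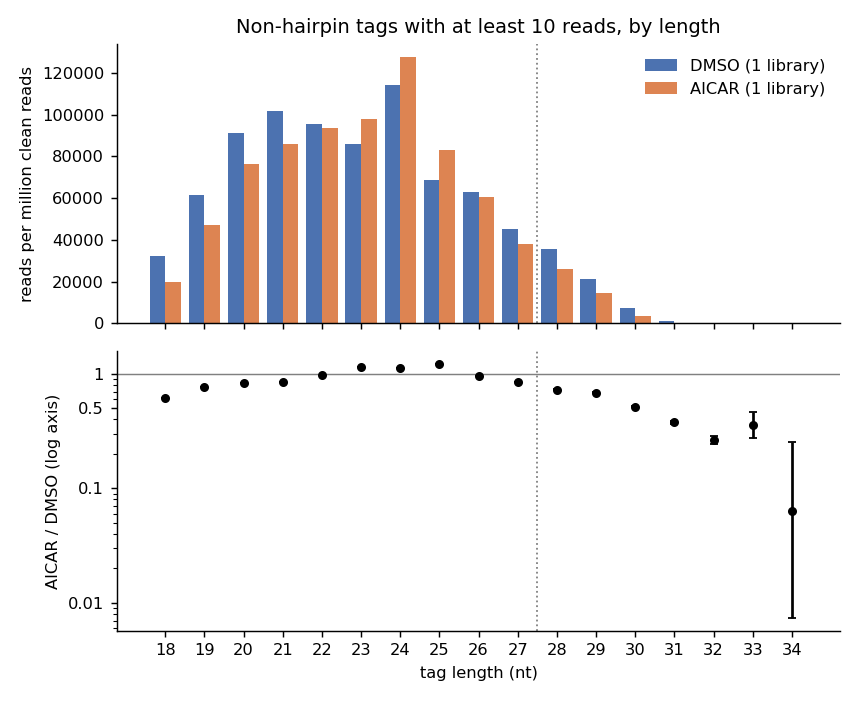
RPM by tag length (nt) in the DMSO and AICAR libraries (top, bars) and the ratio AICAR over DMSO at each length with its 95% counting interval (bottom, log axis), for tags outside hairpins with at least 10 reads; the dotted line marks where the long tags begin. The ratio falls from 0.728 at 28 nt to 0.266 at 32 nt, while it lies above 1 at 23 to 25 nt.

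The same step with length was seen within some stretches of RNA. Tags were joined into a chain when they shared 18 consecutive bases, and chains were numbered by their reads. In chain 1, which holds tag3, tag5, tag7 and tag10, the ratio was 0.537 at 28 nt, 0.454 at 29 nt, 0.432 at 30 nt and 0.332 at 31 nt. In chain 10 it went from 1.01 at 28 nt through 0.822 and 0.541 to 0.244 at 31 nt. Chains 6, 7 and 8 also had a lower ratio at each further length. Chain 5, with enough reads at 28 and 29 nt alone, went from 1.26 to 0.804. Chains 2, 3, 4 and 9 did not follow this order. Chain 2, which holds tag1 and tag2, gave 1.67, 1.08, 0.971 and 1.06, and chain 3, around tag9, gave 0.472, 0.419, 0.450 and 0.157. Chain 4 rose to 1.46 at 31 nt, and chain 9, with enough reads at 28 and 29 nt alone, had 0.141 and 0.242.

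Long tags were also compared with the shorter tags that begin with the same 18 bases. Of 487 such starts, each with long tags reaching 10 RPM in DMSO or AICAR and short tags in both, the long tags had the lower ratio in 343. The median ratio was 0.619 for the long and 0.787 for the short tags, and long tags held 13.98% of the reads of these starts in DMSO and 11.2% in AICAR. For the start of tag3, a stretch whose shorter form of 24 nt is the most abundant sequence of all, the long tags gave 0.541 and the short ones 0.782. The start of tag1 went the other way, with 1.04 for the long tags against 0.689 for the short ones, and so did that of tag4, with 1.26 against 0.726.

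Few stretches of RNA gave most of the reads. The 10 most abundant long tags held 30.4% of the long reads in DMSO and 31.0% in AICAR, and 27 and 26 tags, respectively, were enough for 50% of them. Because these tags overlap, they are not separate observations. Counted as chains, there were 1207, of which 618 were a single tag, and the 10 largest chains held 60.4% and 59.3% of the reads. In DMSO, 7 chains made up 50% of the reads, and in AICAR 6 did.

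The largest chains exchanged places between the libraries. Chain 1, the stretch around tag3, had 217356 reads in DMSO and 118944 in AICAR, so that its part of the long reads went from 17.7% to 12.6% (ratio 0.490). Chain 2, the stretch around tag1, had 121676 and 180658 reads and went from 9.89% to 19.2% (ratio 1.33). Without chain 2, the ratio of all other long tags was 0.614 (0.612 to 0.615). Chain 3, around tag9, went from 101182 to 49702 reads (0.439), chain 6, around tag6, from 53756 to 25152 (0.419), and chain 9, around tag8, from 41227 to 6544 (0.142). Chain 5, on the snoRNA gene Gm23212, went from 34815 to 48913 reads (1.26).

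**Figure D2:**
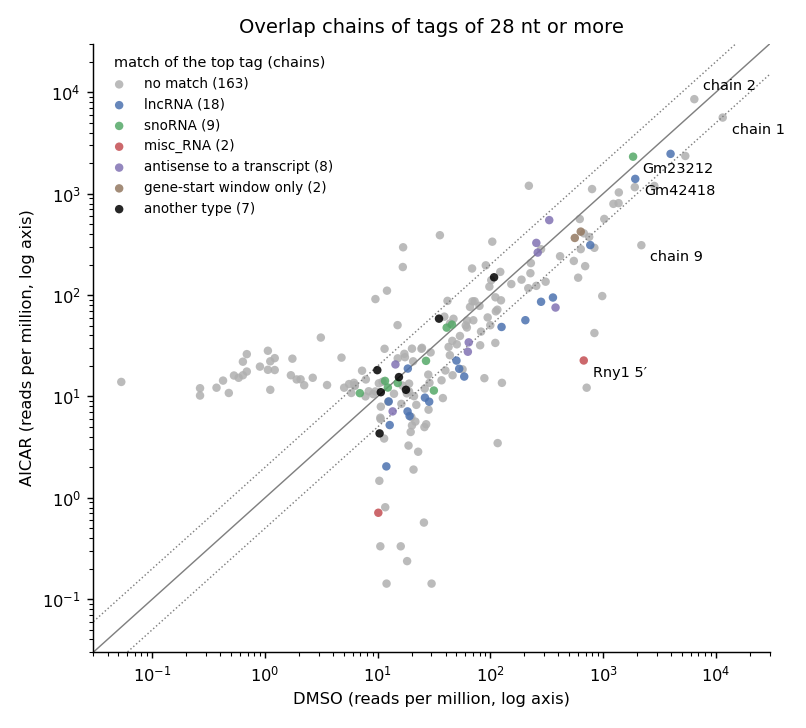
RPM in AICAR against DMSO, on log axes, of the 209 chains of overlapping long tags that reached 10 RPM in either library, coloured by the match of the leading tag, with lines at equal RPM (solid) and at 2-fold (dotted). Chain 1 lies below the line of equal RPM at 11518 and 5640 RPM and chain 2 above it at 6448 and 8566 RPM, and the points above the upper dotted line are all unmatched chains.

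Of the 10 most abundant tags, 6 were at most 0.5 in AICAR relative to DMSO and none was 2-fold higher, and 3 of the 6 are overlapping tags of chain 1. Over all long tags 38.7% were at most 0.5 and 20.2% at least 2, beside 27.2% and 33.4% of all tags outside hairpins with at least 10 reads. The most abundant, tag1, was read 55838 times in DMSO and 64611 times in AICAR, a ratio of 1.04 (1.02 to 1.05) that became 0.974 with the reads of at least 21 nt as denominator. The neighbouring tag2 went from 28164 to 60151 reads (1.91, 1.88 to 1.94), and this ratio was 2.01 relative to the reads outside hairpins. The tags tag3, tag5, tag7 and tag10 of chain 1 had ratios of 0.572, 0.431, 0.484 and 0.427, from 52725, 36040, 32736 and 29289 reads in DMSO. The tag tag8 went from 40538 to 6355 reads (0.140, 0.137 to 0.144), tag6 from 35019 to 15816 (0.404) and tag9 from 29809 to 13664 (0.410).

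No single first base led the long tags. In DMSO the long reads began with A in 29.1%, G in 26.8%, U in 24.9% and C in 19.2%, and in AICAR with U in 30.8%, A in 29.4%, G in 20.3% and C in 19.6%. Over distinct tags, each counted once, A stood at 28.2%, C at 25.6%, G at 23.96% and U at 22.2%. The tags of 18 to 27 nt began with U in 19.2% and 19.01% of their reads. The higher share of U in AICAR rested on 1 stretch of RNA: without chain 2, U began 16.7% of the long reads in DMSO and 14.9% in AICAR.

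First bases followed the stretches that dominate a length or a match type. At 30 nt, 57.7% of the reads in DMSO and 59.6% in AICAR began with A, and at 32 nt 77.3% and 76.7% began with C. The reads on lncRNA transcripts began with U in 3.11% and 1.67%, and with C in 37.1% and 39.5%. At the other end of the tags G was frequent, being the last base of 45.2% of the reads in DMSO and 49.2% in AICAR, while G made up 36.5% and 34.4% of all their bases.

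**Figure D3:**
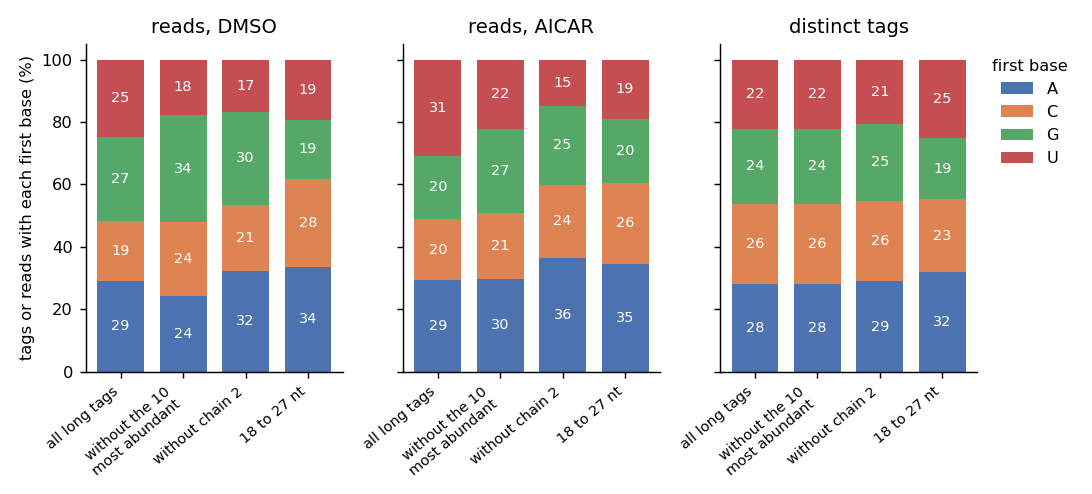
Percent of long reads in DMSO (left) and AICAR (middle), and of distinct tags (right), that begin with each base, as stacked bars for all long tags, the long tags without the 10 most abundant, those without chain 2, and tags of 18 to 27 nt. U moves from 24.9% in DMSO to 30.8% in AICAR over all long tags, and from 16.7% to 14.9% without chain 2.

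Most long reads matched no annotated transcript. Tags were searched without mismatch in 141767 GENCODE transcripts of GRCm38, first on the sense and then on the antisense strand, and then in 300-nt windows around gene starts. No match was found for 5122 tags with 80.5% of the reads in DMSO and 79.2% in AICAR (ratio 0.673). With 1 mismatch allowed, 66.8% and 65.9% of the reads were still without a match. Few nuclear tRNA genes are among these transcripts and windows, and the genome between them was not searched. No 28S rRNA sequence was used either. Chain 1, with letters known from 28S rRNA and 17.7% of the long reads in DMSO and 12.6% in AICAR, therefore counts as unmatched. Sense matches took 17.1% of the reads in DMSO and 17.4% in AICAR, an order that turned to 21.1% and 18.8% with 1 mismatch. The second pair is not fully alike: it includes tags 1 mismatch from a miRNA hairpin, while exact hairpin tags had been removed.

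Reads on lncRNA transcripts were the largest matched type, and nearly all of them lay on Gm42418. The type had 507 tags with 12.2% of the long reads in DMSO and 10.7% in AICAR (0.601, 0.596 to 0.605). The lincRNA Gm42418 (chr17:39846958-39848788, +) alone had 458 tags, with 148217 reads in DMSO and 96412 in AICAR (0.582, 0.577 to 0.587). This locus is known to overlap a copy of the ribosomal DNA. The lncRNAs Gm15564 and Gm26917 had 591 and 257 reads in DMSO against 285 and 110 in AICAR, with ratios of 0.431 and 0.383. In contrast, the tags that match Gm43846 went from 220 to 3413 reads (13.9), all on 3 overlapping tags led by tag84. This tag shares 27 nt with the unmatched tag29 of chain 18, where 68.6% of the reads hold TNGNNNAG at base 8. Whether these reads come from Gm43846 was not tested.

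Along Gm42418 the tags lay in blocks, most of which were lower in AICAR by different amounts. Bases 1154 to 1221 held 72997 and 51238 reads (0.628), and bases 1 to 351, which include tag11, held 58649 and 38743 (0.591). Bases 352 to 412 gave 0.331, from 7599 and 2808 reads, and bases 772 to 815 gave 0.277, from 3845 and 1190 reads. In 2 small blocks, bases 1030 to 1060 and bases 1114 to 1142, the ratios of 1.06 and 1.07 had intervals that include 1. The most extreme single fall among tags with at least 10 RPM in DMSO or AICAR was on Gm42418 too. This was tag796, with 192 reads in DMSO and 1 in AICAR (0.00466, 0.000117 to 0.0263), which reached 10 RPM in DMSO alone.

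The strand of Gm42418 carried tags further upstream, and there neighbouring blocks moved in opposite directions. These tags are antisense to CT010467.1 (chr17:39846353-39848201, -), with 22271 reads in DMSO and 24494 in AICAR on 231 tags. Their ratio of 0.984 (0.966 to 1.00) became 1.03 with the reads outside hairpins as denominator. The block at chr17:39846358-39846531 went from 6302 to 9928 reads (1.41, 1.37 to 1.45) and that at chr17:39846566-39846750, with tag62, from 6458 to 11684 (1.62, 1.57 to 1.67). The next block, chr17:39846753-39846928, went from 8724 to 2533 reads (0.260, 0.248 to 0.272). Its tag464 was read 395 times in DMSO and 3 times in AICAR, whereas tag62 was read 1524 and 3564 times (2.09, 1.97 to 2.22).

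**Figure D4:**
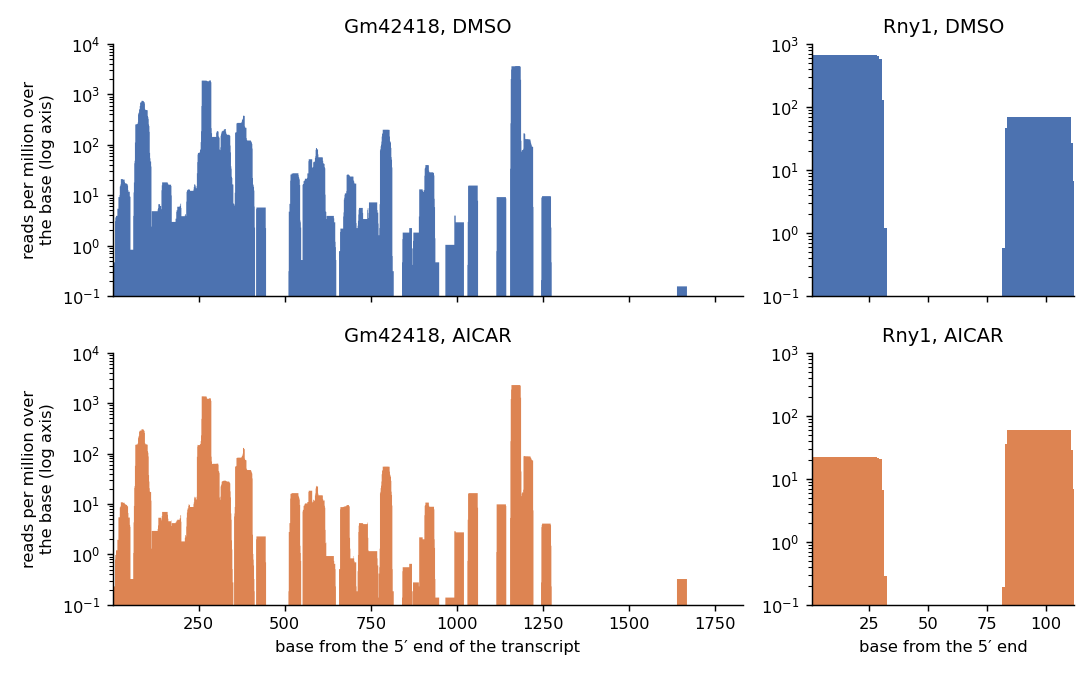
RPM of long tags over each base of Gm42418 (left) and Rny1 (right), on a log axis, against the base counted from the 5′ end of the transcript, in DMSO (top) and AICAR (bottom). On Rny1 the tags of the 5′ end drop from 670 to 22.5 RPM, while those of the 3′ end are at 68.5 and 60.2 RPM.

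The snoRNAs, guides of rRNA modification and processing, had a ratio above 1 as a type, which came from 1 gene. Their 117 tags held 3.24% of the long reads in DMSO and 5.73% in AICAR (1.21, 1.20 to 1.23). Most of these reads were on Gm23212, a gene of 60 nt at chr1:161036682-161036741 (+), whose first 34 bases gave 34630 reads in DMSO and 48639 in AICAR (1.26, 1.24 to 1.27). The leading tag4 went from 34249 to 48308 reads. The other 111 snoRNA tags had 5207 and 5286 reads (0.908, 0.874 to 0.944). Of the 1483 snoRNA genes of the annotation, 56 had a long tag, and of the 117 tags 16 were at least 2-fold higher (13.7%) and 29 at most 0.5 in AICAR (24.8%), both below the shares of 33.4% and 27.2% over all tags outside hairpins.

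The Y RNAs, small noncoding RNAs bound by the Ro60 protein, had the lowest ratio of all types, and the fall was largest at the 5′ end. Rny1 went from 13931 reads in DMSO to 1745 in AICAR (0.112, 0.107 to 0.118). Bases 1 to 32 of its 112 had 12639 reads in DMSO and 475 in AICAR (0.0336, 0.0306 to 0.0369), led by tag40. Bases 82 to 112 had 1292 and 1270 reads (0.879, 0.813 to 0.951), led by tag183, so that the other end of the same RNA fell far less. Chain 46, which holds the tags of this end, is led by the unmatched tag150, and 39.1% of its reads had an exact match. As a whole it had 3563 and 2992 reads (0.751, 0.715 to 0.789). In Rny3, bases 1 to 29 went from 191 to 15 reads (0.0703, 0.0386 to 0.119). Over both genes, 9 of 16 overlapping tags were at most 0.5 and 0 were 2-fold higher, beside 27.2% and 33.4% over all tags outside hairpins.

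The remaining small RNA genes gave few long reads. Rn7sk, the 7SK RNA that holds the elongation factor P-TEFb, went from 36 to 9 reads (0.224, 0.0947 to 0.473). For Rn7s1 and Rn7s2, the RNA of the signal recognition particle, the reads were 56 and 42 (0.671, 0.439 to 1.02). Of these, the 3 tags on Rn7s1 and Rn7s2 alone had 48 and 13 reads (0.242, 0.120 to 0.454), while tag2980, which also matches Gm26461, had 1 and 26. For Rpph1, the RNA of RNase P, the reads were 22 and 17 (0.691, 0.345 to 1.36). Rmrp, the RNA of RNase MRP, had 58 and 38 reads (0.586, 0.379 to 0.898). Small nuclear RNAs had 725 and 572 reads (0.706, 0.631 to 0.789). No long tag matched Vaultrc5, the vault RNA, or any of 67 histone genes, and 8 of 83 ribosomal protein genes had 387 and 349 reads (0.807, 0.696 to 0.935).

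Mitochondrial transcripts gave few long reads as well, with ratios above 1 for most of them. The mitochondrial tRNAs had 79 reads in DMSO and 127 in AICAR on 5 of 22 genes (1.44, 1.08 to 1.93), and the mitochondrial rRNAs had 193 and 257 (1.19, 0.985 to 1.44), an interval that includes 1. Of the rRNAs, mt-Rnr2 went from 172 to 250 reads and mt-Rnr1 from 21 to 7. Of 13 mitochondrial protein genes only mt-Nd1, a subunit of complex I, had long tags, with 187 and 383 reads (1.83, 1.53 to 2.19). Among the nuclear protein-coding genes Lars2, the mitochondrial leucyl-tRNA synthetase, had the most, with 2965 and 4063 reads (1.23). All 79 of its tags lay at bases 3031 to 3414 of the 3894-nt transcript, and 28 of them, with 5140 of the 7028 reads, also matched AA474408 or Gm15564, so these reads cannot be assigned to Lars2 alone. The type as a whole had 4255 and 6011 (1.26, 1.22 to 1.31).

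Part of the reads counted for protein-coding genes and gene starts came from places where a nuclear tRNA gene lies. RefSeq lists 430 tRNA genes on GRCm38, of which 24 have bases within an exon or a gene-start window and could be compared. On 6 of them 19 long tags matched exactly, 11 of these starting at an end of the gene, with 7290 reads in DMSO and 8018 in AICAR (0.984). The tags of Mettl26 are an example: its exon holds the tRNA gene n-TGccc7 (chr17:25875088-25875158), and the tags on this gene, led by tag156, went from 645 to 1215 reads (1.69, 1.53 to 1.86). On n-TVcac9 (chr13:23446142-23446214) the tags led by tag45 had 3888 and 3887 reads (0.894, 0.855 to 0.935), and on n-TAagc16 (chr13:21222586-21222657) those led by tag93 had 2687 and 2852 (0.9496, 0.901 to 1.00). With 1 mismatch allowed, the ratios were 1.68 on n-TGccc7, 0.889 on n-TVcac9 and 0.804 (0.774 to 0.836) on n-TAagc16. The whole chains around tag45 and tag93 had lower ratios, 0.667 and 0.653. Of their reads 36.9% and 30.3% had an exact match. The exact matches on n-TVcac9 and n-TAagc16 make up most of the reads of the gene-start windows, whose ratio of 0.917 turned to 1.29 with the long reads as denominator.

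Many long tags held TNGNNNAG at 1 fixed place. The motif started at base 8 in 522 tags of 64 chains, with 17.1% of the long reads in DMSO and 21.7% in AICAR. At base 7 it was found in 3.23% and 8.59%, and at any other base in at most 3.40%. Of the reads of 18 to 27 nt, 4.80% and 4.02% had it at base 8. Of the 19 tags that match a tRNA gene, 9 had it there. A match of these letters is a description of the tag and no proof of its origin, and the motif was chosen after the tags had been seen.

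In summed reads, tags with the motif at base 8 were less reduced than the other long tags. Their reads went from 209898 to 204348 (0.871, 0.866 to 0.876), and those of the tags without it from 1020283 to 736495 (0.646, 0.644 to 0.648). Without chain 2, the tags with the motif gave 0.745. Among them were tag6 with 0.404 and tag20 with 7726 and 12879 reads (1.49, 1.45 to 1.53), so single stretches of this kind moved in both directions. The tags that hold GTTCGANNC, letters of the B box region, numbered 101 and went from 2471 to 6033 reads (2.18, 2.08 to 2.29). Of these, 51 were at least 2-fold higher (50.5%) and 13 at most 0.5 (12.9%), beside 33.4% and 27.2% over all tags outside hairpins. The 101 tags belong to 24 chains, so overlapping tags of the same stretch are counted more than once. Of the 665 shorter tags with these letters 305 were higher (45.9%) and 73 lower (10.98%), with a ratio of 1.20. The letters are held by 1.61% of the long tags and 0.764% of the tags of 18 to 27 nt. Both motifs were searched on the strand of the tag alone. Only 0.420% of the long reads in DMSO and 0.418% in AICAR ended in CCA, the end added to mature tRNAs.

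The abundant tags with this motif also came with many changed copies. Copies of tag6 with 1 substituted base made up 29.0% of the reads of that tag and its copies in DMSO and 31.3% in AICAR, and those of tag1 made up 8.13% and 9.02%. The frequent changes of tag6, with positions counted from 1 at the 5′ end of the tag, were G6U at 16.1% and 16.7% and G9C at 11.7% and 14.7% of the unchanged reads of tag6. The tags of chain 1, chain 3, chain 5 and chain 9 had far fewer: copies made up 0.929% and 0.888% for tag3, 1.497% and 2.24% for tag5 of the same chain, 0.268% and 0.281% for tag9, 0.458% and 0.492% for tag4 and 0.447% and 0.293% for tag8. Nuclear tRNAs are known to carry many modified bases and to come from families of near-identical genes. Their part in these copies was not tested.

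The second most abundant tag belongs to these changed copies. tag2 is a form of tag1 with 1 base fewer. Such forms had 38.2% as many reads as the unchanged forms in DMSO and 70.3% in AICAR. In the stretch of tag29, forms with 1 base fewer at position 6 stood at 16.3% and 29.7% of the unchanged reads.

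In chain 18, tags that start at different bases of the same stretch moved in opposite directions. The tags at the start of tag29 went from 12167 to 1707 reads (0.126, 0.119 to 0.132), whereas those that begin 1 to 3 bases further in, led by tag84, went from 220 to 3413 (13.9, 12.1 to 15.98). The most abundant of each were tag29, with 11638 reads in DMSO and 1598 in AICAR, and tag84, with 174 and 3222. The lncRNA Gm43846 holds the letters of tag84 but not the first bases of tag29. In chain 2 the tags at the start of tag1 had 1.04, against 3.58 (3.23 to 3.96) for the 473 and 1890 reads that begin further in, and in chain 13, around tag20, the values were 1.41 and 6.70 (5.24 to 8.68).

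This difference was then looked for in all chains with both kinds of tags, as a comparison chosen after these values had been seen. Chains 2, 13 and 18 are among the chains counted. Of 12 chains whose leading tag has TNGNNNAG at base 8, the tags further in had the higher ratio in 9, in 8 of them with intervals apart, and the lower in 3, in 2 of them with intervals apart. Their median was 3.20 times the ratio at the start. Without chains 2, 13 and 18, the ratio further in was higher in 6 of 9, in 5 of them with intervals apart. Of 111 other chains, 59 had the higher ratio further in, 18 of them with intervals apart, and 52 the lower, 27 of them with intervals apart, with a median of 1.05 times. The tags further in are few in several of these chains, for example 2 and 21 reads in chain 21 around tag45.

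**Figure D5:**
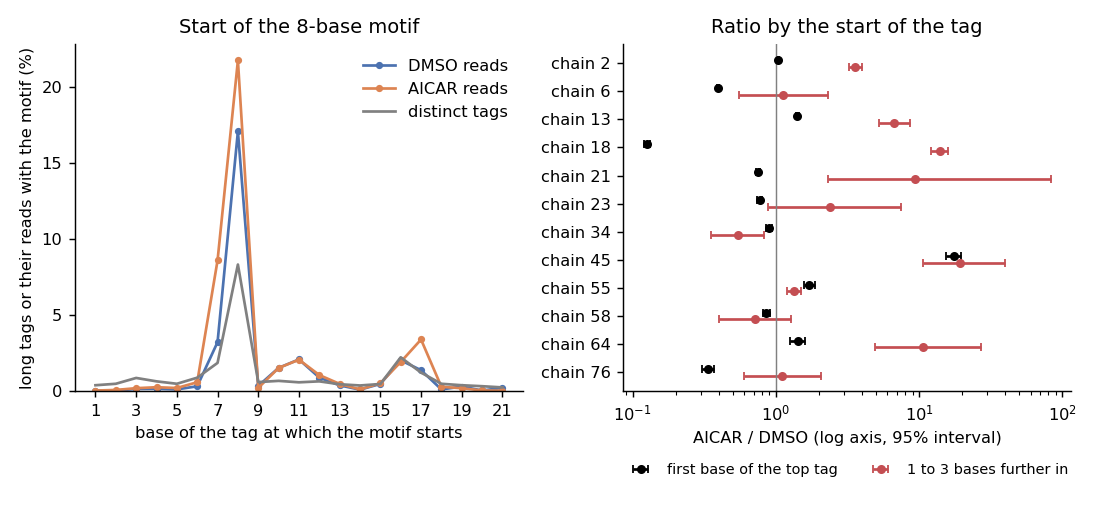
Percent of long reads and of distinct long tags in which TNGNNNAG starts at each base (left), and the ratio AICAR over DMSO, on a log axis with 95% counting intervals, of the tags at the start of the leading tag and of those 1 to 3 bases further in, for 12 chains (right). Base 8 stands out with 17.1% of the reads in DMSO and 21.7% in AICAR, and in chain 18 the ratios by start are 0.126 and 13.9.

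Relative to all tags, more long tags were low and fewer were high in AICAR. A ratio of at least 2 was found for 1266 of the 6272 long tags (20.2%), beside 33.4% of all 93274 tags outside hairpins with at least 10 reads. A ratio of at most 0.5 was found for 2426 (38.7%), beside 27.2%. The median ratio was 0.671 for the long tags and 1.04 for all. Over all 1207 chains of long tags, 32.7% were higher and 34.9% lower. The other tags were not joined into chains, so the shares over single tags are not a like measure for these. Setting the long reads of both libraries equal adds 0.50 to every log2 ratio, and the counts then were 1646 higher (26.2%) and 1812 lower (28.9%). The shares over all tags were not computed at this setting. Among lncRNA tags, 458 of which are on Gm42418, 27 of 507 were higher (5.33%) and 300 lower (59.2%). Among unmatched tags 1163 of 5122 were higher (22.7%) and 1924 lower (37.6%).

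At the level of chains, rises past 2-fold were found among chains whose leading tag was unmatched. Of 209 chains that reached 10 RPM in DMSO or AICAR, which hold 97.8% of the long reads, 46 were at least 2-fold higher and 68 at most 0.5. Over all 1207 chains, 32.7% were higher and 34.9% lower, beside 33.4% and 27.2% of single tags outside hairpins. All 46 were among the 163 chains whose leading tag had no match. Chain 18, 1 of the 163 by its leading tag29 and lower as a whole (0.350), also holds the matched Gm43846 tags, which rose (13.9). Of the 68, 48 were unmatched and 14 were on lncRNA, out of 18 lncRNA chains. As Gm42418 holds 97.8% of the lncRNA reads, several of these chains are stretches of that 1 locus and not separate lncRNAs. The chains on the 5′ ends of Rny1 and Rny3 and 1 of 9 snoRNA chains were among the 68 as well.

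The unmatched chains that rose included some of the larger ones in AICAR. Chain 15 went from 4138 reads in DMSO to 25250 in AICAR (5.46, 5.28 to 5.64), chain 37 from 672 to 8213 (10.9, 10.1 to 11.8) and chain 45 from 317 to 6243 (17.6). The organism of these reads was not tested. The chain with the highest ratio, chain 204, had 1 read in DMSO and 293 in AICAR. Among single tags with at least 10 RPM in DMSO or AICAR, tag630 had the largest ratio (4 and 261 reads, 58.4, 22.5 to 216). Next were tag66 (70 and 4477 reads, 57.2, 45.2 to 73.5) and tag637 (5 and 254 reads, 45.5, 19.2 to 141). They were followed by tag383 with 13 and 507 reads and tag485 with 11 and 366. Each of these tags reached 10 RPM in AICAR alone, with 0.212 to 3.71 RPM in DMSO, so high ratios were favoured by the limit.

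Unmatched chains fell by similar factors. Chain 30 went from 13485 reads to 257 (0.0171, 0.0150 to 0.0193), chain 27 from 15797 to 890 (0.0504) and chain 22 from 18536 to 2061 (0.0995). The leading tag of chain 22, tag21, lies 1 mismatch from the hairpin of Mir6240, and at its start the long tags fell much more than the short ones, with 0.0876 against 0.616. The lowest ratio of a chain was that of chain 134, with 567 reads in DMSO and 3 in AICAR. Of single unmatched tags, tag388 went from 508 reads to 3 (0.00528, 0.00109 to 0.0155), tag392 from 501 to 4 and tag719 from 216 to 2. Each of these tags reached 10 RPM in DMSO alone.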

How the data were processed

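sRNA of 18 to 30 nt was sequenced from 1 DMSO and 1 AICAR library (total RNA, J1 mouse ES cells). The title of the control calls it J1_U, and its treatment label is DMSO. The authors removed low-quality, adaptor and short reads, collapsed the clean reads and deposited each tag's sequence with its read count, not normalized. Per the submitters' notes the build was mm9, but the deposited counts carry no positions.

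From the counts, RPM of all clean reads were computed with Python 3.11.15, numpy 2.4.6, pandas 2.3.3 and scipy 1.17.1, and plots with matplotlib 3.10.9. Tags within 2202 GENCODE (vM21, GRCm38) miRNA entries were removed. Other tags were searched without mismatch in transcripts, and a tag of several types went to the first in a fixed order, small RNA types before protein-coding genes and lncRNAs. They were then searched in RefSeq windows from 250 bases before to 50 after each gene start. These windows stood in for a search of the genome sequence, which was not used here. Coordinates are GRCm38.

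Ratios carry 95% exact binomial and shares 95% Wilson intervals. A tag without a read was bounded against 3 reads. Tags with 18 consecutive bases in common were joined into chains. Tags named are the 10 most abundant, the most abundant of each match type with at least 1% of the reads, and the 5 largest and 5 smallest ratios past 2-fold with at least 10 RPM. Genes named are those with the most reads of each type and those of the lists. tag20, tag21, tag29, tag40, tag45, tag84, tag93, tag156, tag183 and the chains described were chosen after their values had been seen. The members and lists were chosen with earlier results of these data known. Other denominators, read minimums, groupings and matching rules were tried as alternatives. The steps were tested on simulated data. The sequence of tag1 and of its copies is not reported here.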

Additional observations from a re-analysis of the deposited data

How the results depend on the processing

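The lower level of long tags in AICAR and the most frequent length of 28 nt held under each alternative tried. Of 82 alternatives of the main values, 33 stayed within the counting interval or within 1.5 times the count, and 49 moved. Most of the 82 are of shares, lengths or counts, which cannot cross 1. The alternatives of the RPM ratio all stayed below 1. The shares are per library, and the order of DMSO and AICAR turned for first U without chain 2, for the 10 largest units over 18-base starts, over chains and without a minimum, and for sense matches with 1 mismatch. The RPM ratio of 0.684 became 0.718 with the reads outside hairpins as denominator, 0.644 with the reads of at least 21 nt, 0.709 without a minimum of reads, 0.690 from 2 reads, 0.681 from 100 reads, 0.660 without the most abundant 18-base start and 0.679 without the 10 most abundant tags. Chosen after seeing the data, it was 0.871 with and 0.646 without TNGNNNAG at base 8.

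The share of first U in DMSO and AICAR was 22.1% and 22.4% over distinct tags, 22.8% and 23.1% over 18-base starts, 17.7% and 22.3% without the 10 most abundant tags, 24.7% and 29.9% without a minimum, 25.1% and 31.3% from 100 reads and, added after seeing the data, 16.7% and 14.9% without chain 2. The 10 largest units held 41.2% and 40.6% over 18-base starts, 60.4% and 59.3% over chains (added later), 32.4% and 33.2% from 100 reads and 27.9% and 27.4% without a minimum.

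With 1 mismatch, sense matches, then including tags near miRNA hairpins, rose to 21.1% and 18.8% and lncRNA to 14.3% and 11.4%. Counting every type of a tag gave lncRNA 12.2% in DMSO. From 100 reads, lncRNA was 12.3% and 11.04%, snoRNA 3.34% and 6.01%, and sense matches 17.9% in AICAR.

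Tags past 2-fold higher and lower numbered 474 and 1030 of 2813 from 30 reads (16.9% and 36.6%). From 100 reads they were 173 and 461 of 1270 (13.6% and 36.3%). Over 18-base starts they were 809 and 1314 of 3524 (23.0% and 37.3%), and over chains (added later) 395 and 421 of 1207 (32.7% and 34.9%). Over all tags outside hairpins with at least 10 reads the shares were 33.4% and 27.2%. With the interval wholly past 2-fold, 581 and 1051 were left (9.26% and 16.8%). The last setting is a stricter call on the same 6272 tags, and the others test fewer units. Of 40 ratios of single tags, types and genes, 6 crossed 1 under another denominator: tag1, CT010467.1, the antisense, gene-start, rRNA (0.838) and scaRNA (1.03) types. The search of the genome sequence, with and without a final CCA, was not run, and 0 tags matched a transcript after removing CCA. With 1 library per condition, counts limit only the precision of these libraries.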
